A study of Mus musculus with 42 samples.

Results

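Meg3, Rian, Mirg and H19 are long noncoding RNAs made from imprinted loci, where only 1 parental copy of a gene is normally used. They were picked by name, because earlier results of the same liver libraries had shown that they differed between the diet groups, and they are 4 of the 54446 genes in the count table. The levels and fold changes of these 4 RNAs between the groups are therefore given as a description, without a test.

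Liver RNA was sequenced from 42 female APOE*3-Leiden transgenic mice, which carry a human apolipoprotein E variant and develop high plasma cholesterol on a rich diet. The chow group held 10 mice on maintenance chow, the healthy reference, taken at week 32; their age was not given in the sources used here. The WTD group held 16 mice, 8 to 14 weeks old at the start, on a Western-type diet with 15% cocoa butter, 40.5% sucrose and 1% cholesterol, to which 0.05% sodium cholate was added from week 22. The third group held 16 mice on the same WTD with atorvastatin, an inhibitor of cholesterol synthesis, at 3 mg/kg/day and at 4.5 mg/kg/day from week 5. Both WTD groups had a run-in of 3 weeks on the diet and were also taken at week 32. The labels number the chow-fed mice in another series than the WTD-fed and atorvastatin-treated mice, so that diet and number series cannot be told apart. All groups carry the transgene, and each library came from 1 mouse.

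Meg3, Rian and Mirg lie one after another on the same strand of the Dlk1-Dio3 domain and are expressed from the maternal chromosome, whereas the protein-coding genes of that domain, Dlk1, Rtl1 and Dio3, are expressed from the paternal one. Transcription that starts at the Meg3 promoter is thought to run on through Rian, which holds small nucleolar RNAs, and Mirg, which holds a dense cluster of microRNAs. H19 is expressed from the maternal chromosome at another locus, next to the paternally expressed growth factor gene Igf2. It is abundant in fetal liver and is silenced after birth, and it is the precursor of miR-675. The counts did not separate the parental alleles.

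On build GRCm38, Meg3 (ENSMUSG00000021268.17, lincRNA) spans chr12:109541001-109571726 on the plus strand, with 18.089 kb of exon in 30.726 kb. Rian (ENSMUSG00000097451.10, processed transcript) spans chr12:109603940-109661716 on the plus strand and starts 62.939 kb from the Meg3 start. Mirg (ENSMUSG00000097391.8, lincRNA) spans chr12:109729764-109749460 on the plus strand and starts 188.763 kb from the Meg3 start. H19 (ENSMUSG00000000031.16, lincRNA) spans chr7:142575529-142578143 on the minus strand and has 2.46 kb of exon in 2.615 kb.

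Since the RNAs that follow Meg3 are thought to share its transcription start, the Meg3 promoter is shown, from 250 bases before to 50 bases after the RefSeq start on GRCm38.p6, chr12:109540746-109541045, plus strand. Capitals mark, in order, a CCAAT box (CCAAT), a cAMP response element (TGACGTCA) and overlapping TATA boxes (TATAAA on either strand).
Meg3 promoter: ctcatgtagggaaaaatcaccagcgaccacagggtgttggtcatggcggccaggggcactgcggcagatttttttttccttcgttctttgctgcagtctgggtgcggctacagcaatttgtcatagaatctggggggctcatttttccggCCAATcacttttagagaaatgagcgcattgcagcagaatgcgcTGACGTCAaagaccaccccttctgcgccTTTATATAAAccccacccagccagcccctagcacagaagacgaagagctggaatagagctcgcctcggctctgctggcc

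The CCAAT box began at base -100 from the start, the cAMP response element at base -57 and the TATA boxes at bases -29 and -25. Of 32851 RefSeq promoter windows of the same 300-base length, searched on both strands, 37.4% held the CCAAT box, 13.6% the TATA box and 1.79% the cAMP response element. All 3 were found together in 21 windows (0.0639%), of which Meg3 was 1. A match of letters is a description and not evidence that a factor binds there.

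The 4 gene bodies hold 37 mature microRNAs of RefSeq, 3 in Meg3, 6 in Rian, 26 in Mirg and 2 in H19, with 36 different seeds. The seed, bases 2 to 8, is the part of a microRNA that pairs with its targets. A few are shown, with the seed in capitals, to give the products that these RNAs can carry: those of H19, 1 of Meg3, 2 of Rian, and of Mirg the only pair with a shared seed and 2 others.
miR-675-5p (H19): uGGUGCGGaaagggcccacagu
miR-675-3p (H19): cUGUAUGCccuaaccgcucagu
miR-770-5p (Meg3): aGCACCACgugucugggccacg
miR-370-3p (Rian): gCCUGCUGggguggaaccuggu
miR-341-3p (Rian): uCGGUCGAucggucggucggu
miR-453 (Mirg): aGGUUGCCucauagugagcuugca
miR-496a-5p (Mirg): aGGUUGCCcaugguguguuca
miR-134-5p (Mirg): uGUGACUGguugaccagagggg
miR-410-3p (Mirg): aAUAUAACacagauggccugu

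miR-453 and miR-496a-5p share the seed GGUUGCC. The libraries were made from polyadenylated RNA, so that mature microRNAs were not measured. The host RNAs were.

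Library totals ranged from 15661381 to 36224054 counts, with a median of 19421090. Of the 54446 genes, 15574 passed the filter on low counts and were tested, among them Meg3, Rian and H19 but not Mirg. In 8 libraries (3 chow, 4 WTD and 1 atorvastatin) over 20% of the genes with a group mean between 1 and 2 CPM had no count at all. CPM is the usual count relative to the library total, here on library sizes scaled by TMM, which corrects for a few very abundant RNAs.

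Meg3 was detected in every chow liver and was close to 0 in every liver of both WTD groups. In chow-fed mice its level was 18.7 CPM in the lowest mouse, 40.4 CPM at the median and 60.4 CPM in the highest, from 303 to 1115 counts per library. In WTD-fed mice the lowest, median and highest values were 0, 0.491 and 2.43 CPM, and in atorvastatin-treated mice 0, 1.16 and 2.48 CPM. No chow-fed mouse overlapped with any mouse of the other groups. Lower levels without overlap were seen for 2.44% of all tested genes between chow and WTD and for 1.49% between chow and WTD with atorvastatin.

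The fitted fold changes put Meg3 49.5-fold lower in WTD-fed than in chow-fed mice (log2 fold change -5.63, SE 0.45) and 31.2-fold lower in atorvastatin-treated than in chow-fed mice (-4.96, SE 0.43). Of all 15574 tested genes, 33.5% were called between WTD and chow, 25.0% between WTD with atorvastatin and chow, and 7.10% between atorvastatin and WTD alone, at an adjusted p under 0.01. Ordered by fitted fold change from the lowest, Meg3 was number 12 for WTD and number 8 for WTD with atorvastatin. These chow comparisons share the same 10 chow libraries.

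Between the WTD groups, the fitted Meg3 difference was 0.67 on the log2 scale (SE 0.40), higher with atorvastatin, and the 2 groups overlapped over nearly their whole range. Meg3 had no count in WTD mice 10, 11 and 16 and in atorvastatin mouse 7. In these 4 libraries a level of up to 3 counts would have gone unseen, which is 0.129 to 0.171 CPM in the WTD mice and 0.0866 CPM in the atorvastatin-treated mouse. This floor covers counting error only, and the libraries of WTD mice 10 and 16 missed 46.2% and 21.7% of the genes with a group mean between 1 and 2 CPM. The lowest and highest WTD-fed mice with a count were at 0.316 and 2.43 CPM.

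Rian followed the same course at a lower level. In chow-fed mice the lowest, median and highest values were 3.11, 12.9 and 23.6 CPM (47 to 503 counts). In WTD-fed mice they were 0, 0 and 1.26 CPM, with no count in 9 of 16 mice. In atorvastatin-treated mice they were 0, 0.270 and 0.851 CPM, with no count in 3 of 16. Again no chow-fed mouse overlapped with the others, and the lowest, chow mouse 3, was at 47 counts against at most 22 in WTD-fed and 23 in atorvastatin-treated mice.

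The fitted fold changes of Rian were -6.08 (SE 0.68, 67.5-fold lower) for WTD and -5.43 (SE 0.66, 43.2-fold lower) for WTD with atorvastatin, each against chow. From the lowest, these were number 6 and number 4. Between the WTD groups the value was 0.64 (SE 0.61), higher with atorvastatin, and their ranges overlapped.

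Mirg was weak in all groups and did not pass the filter, so that its fold changes come from a fit of the unfiltered table. The lowest, median and highest chow-fed mice were at 0, 1.32 and 4.85 CPM, and the 10 chow libraries held 298 Mirg counts in total. The WTD libraries held 9 counts, all in mouse 13 (0.435 CPM), and the atorvastatin libraries 13 counts in 5 mice, with a highest value of 0.278 CPM. Since chow mice 2, 3 and 6 had no Mirg count either, the groups overlapped. In these 3 chow libraries 3 counts correspond to 0.192 to 0.199 CPM. This floor covers counting error only. The libraries of chow mice 2 and 6 missed 59.0% and 26.8% of the genes with a group mean between 1 and 2 CPM, and whether they lost Mirg reads was not tested.

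The fitted values for Mirg were -5.46 (SE 1.08) for WTD and -4.74 (SE 1.05) for WTD with atorvastatin against chow, and 0.72 (SE 0.92) between the WTD groups. WTD mouse 13 alone set the WTD level: without it the WTD group had no Mirg count, and chow was at least 183-fold higher, taken against a floor of 3 counts over the 15 remaining mice.

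H19 was abundant in both WTD groups and, with 1 exception, hardly present in chow-fed mice. The lowest, median and highest chow values were 0, 0.571 and 105 CPM. In WTD-fed mice they were 26.3, 105 and 170 CPM (106 ± 32.5, SD, n = 16), and in atorvastatin-treated mice 25.0, 79.8 and 163 CPM (82.3 ± 34.1, SD, n = 16). The highest chow value belonged to mouse 1, which held 1776 of the 1867 H19 counts of its group and lay inside the range of both WTD groups. The 9 other chow-fed mice ranged from 0 to 1.85 CPM with a median of 0.375 CPM, below every mouse of the WTD groups.

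Without chow mouse 1, higher levels without overlap were seen for 3.68% of tested genes in WTD-fed and for 3.22% in atorvastatin-treated mice. The fitted H19 change for WTD against chow was 3.27 (SE 0.74, 9.67-fold higher) with all mice and 7.64 (SE 0.46, 199-fold higher) without chow mouse 1. For WTD with atorvastatin against chow the values were 2.91 (SE 0.73) and 7.28 (SE 0.45). Counted from the highest fold change, H19 was number 224 with all mice and number 14 without chow mouse 1 for WTD, and number 167 and number 6 with atorvastatin. For atorvastatin against WTD the H19 value was -0.36 (SE 0.55), with overlapping ranges.

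**Figure D1:**
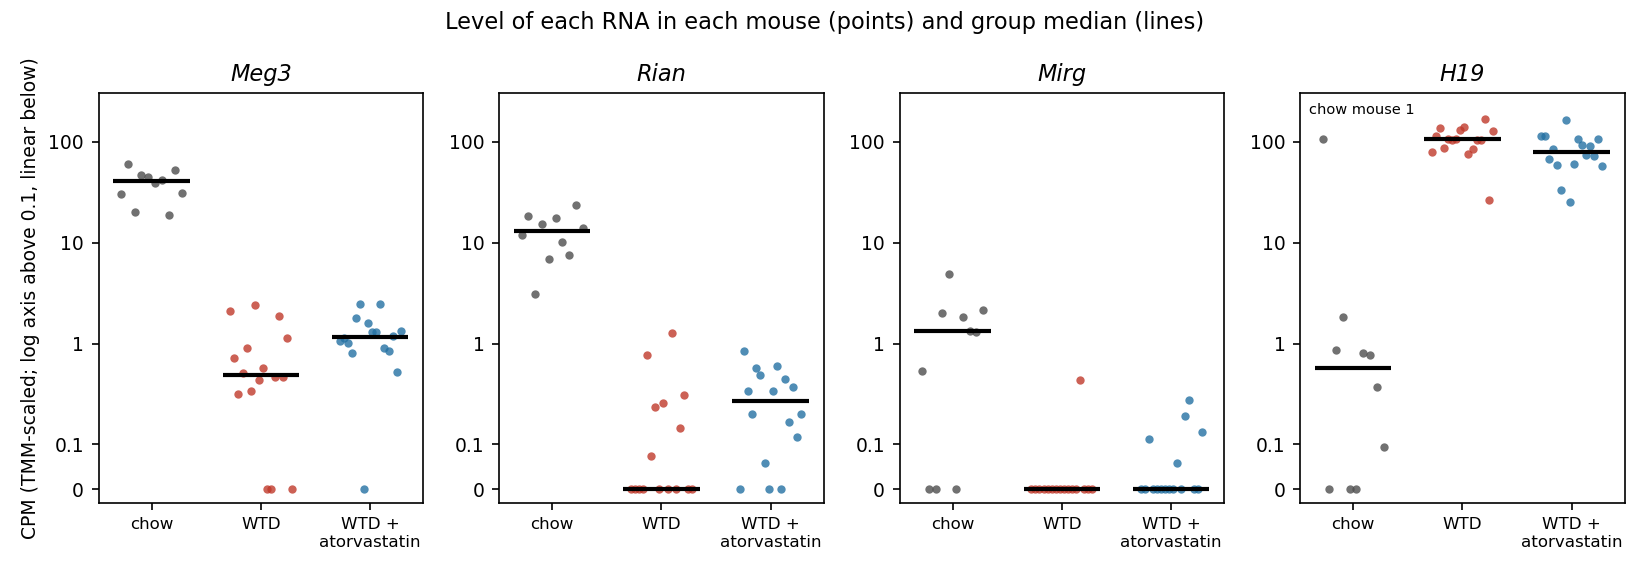
CPM of Meg3, Rian, Mirg and H19 in each of the 42 mice, with points for mice and lines for group medians, on an axis that is logarithmic above 0.1 CPM and linear below. Meg3 and Rian in chow-fed mice lie above all mice of the WTD groups, and H19 in chow mouse 1 (105 CPM) lies at the level of the WTD groups.

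**Figure D2:**
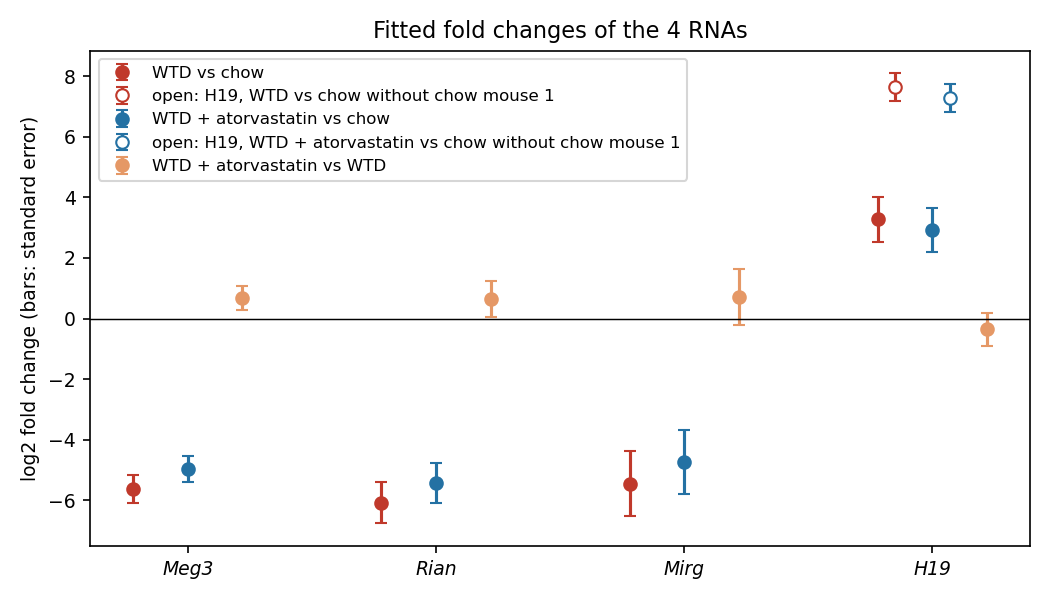
Fitted log2 fold changes (y axis) of the 4 RNAs in the 3 comparisons, with bars for the standard error and open points for H19 without chow mouse 1. Meg3, Rian and Mirg are between -6.08 and -4.74 against chow, and H19 goes from 3.27 to 7.64 for WTD against chow when chow mouse 1 is left out.

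In bulk tissue, fewer cells of a type and less RNA per cell cannot be told apart, and this holds for all 4 RNAs.

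Per kb of exon the order of the RNAs turned over between the groups. The chow medians were 2.23 CPM per kb for Meg3, 0.709 for Rian, 0.232 for H19 and 0.181 for Mirg. In WTD-fed mice the median of H19 was 42.7 CPM per kb and that of Meg3 0.0271, and in atorvastatin-treated mice they were 32.5 and 0.0644. H19 and Mirg, the neighbours at the low end in chow-fed mice, overlapped from mouse to mouse. Exon length may not be the right divisor, since reads within introns seem to have been counted too (see the nested genes below). Exon makes up 18.234 kb of the 57.777 kb of Rian and 2.46 kb of the 2.615 kb of H19.

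The shares of the 3 RNAs of the Meg3 locus in the reads counted on them together can be given for each group as a whole or for each mouse. Pooled over the mice, Meg3 took 72.3% in chow-fed mice, 79.5% in WTD-fed mice and 79.6% in atorvastatin-treated mice. Rian took 24.7%, 18.1% and 17.9%, and Mirg 2.92%, 2.47% and 2.58%, where the 2.47% comes from WTD mouse 13 alone. The pooled WTD and atorvastatin shares rest on 365 and 504 reads against 10192 in the chow group. Shares by mouse leave out WTD mice 10 and 16, which had no read on any of the 3 RNAs. By mouse, the median share of Meg3 was 72.0% in chow-fed mice (66.1% to 86.6%), 95.6% in WTD-fed mice (0 to 100%) and 77.6% in atorvastatin-treated mice (0 to 100%). The median share of Rian was 25.7% (12.3% to 31.2%), 2.94% (0 to 100%) and 20.4% (0 to 100%) in the same order. Single mice of the WTD groups held too few reads for a share to be read closely.

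Single mice did not show the RNAs going strictly together. Chow mouse 9 had the highest Rian (23.6 CPM) and the second highest Meg3 (52.2 CPM), and chow mouse 3 had the lowest Rian and, at 20.1 CPM, the second lowest Meg3. WTD mouse 11 had no Meg3 count but the most Rian counts of its group (22). Atorvastatin mouse 7 had no Meg3 count and the highest H19 of its group (163 CPM), whereas mouse 6, with the highest Meg3 (2.48 CPM), had the second lowest H19 (33.5 CPM).

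The association of the 4 RNAs between mice of the same group was tested for 6 pairs in 3 groups, 18 relations. After Benjamini-Hochberg adjustment none passed 0.05 by permutation test, with 2 at an unadjusted p under 0.05. Meg3 and Rian in chow-fed mice gave Pearson's r = 0.72 (permutation p = 0.019, adjusted 0.18) and Spearman's rho = 0.67 (permutation p = 0.040, adjusted 0.36, n = 10). That r was 0.34 without the 2 mice farthest from the Meg3 median and 0.81 without the 3 chow libraries that missed weak genes. Meg3 and H19 in atorvastatin-treated mice gave r = -0.61 (permutation p = 0.021, adjusted 0.18) and rho = -0.58 (permutation p = 0.020, adjusted 0.35, n = 16), with r = -0.47 without the 2 farthest mice.

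The library of chow mouse 1 also held RNA that no other liver had in quantity. The sum of 12 skeletal muscle genes, a list drawn up after this library had been seen, was 4696 CPM in chow mouse 1 and at most 9.07 CPM in the other 41 mice. Actin Acta1 was at 815 CPM, the myosin heavy chain Myh1 at 703 CPM, the calcium pump Atp2a1 at 634 CPM, troponin Tnnt3 at 606 CPM and creatine kinase Ckm at 433 CPM. Its lymphocyte markers summed to 51.2 CPM, against at most 21.7 CPM in the other chow-fed mice. Meg3 (30.4 CPM) and Rian (11.9 CPM) of chow mouse 1 lay within the range of the other chow-fed mice. Whether the muscle RNA carried the H19 counts was not tested.

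**Figure D3:**
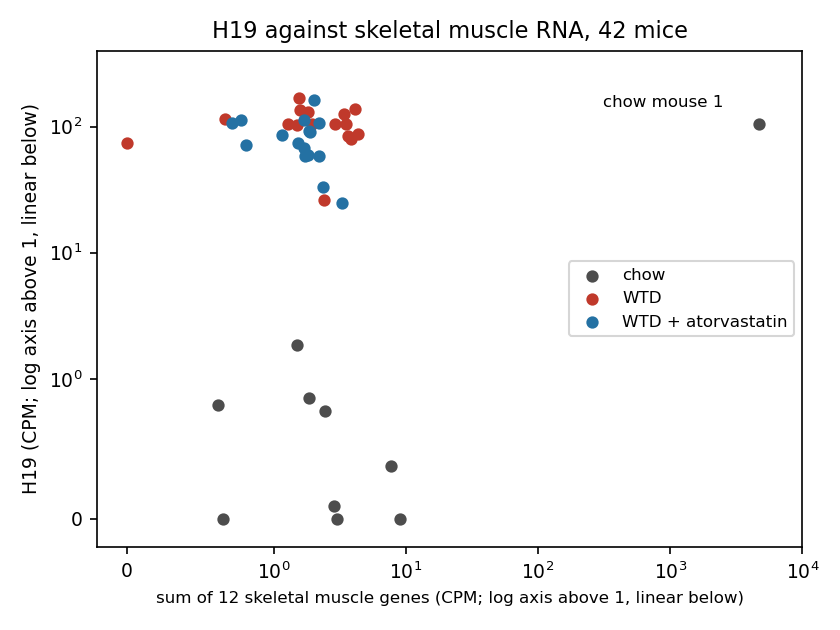
H19 (y axis, CPM) against the sum of 12 skeletal muscle genes (x axis, CPM) in each of 42 mice, both axes logarithmic above 1 and linear below. Chow mouse 1, at 4696 and 105 CPM, stands alone, while the WTD groups reach the same H19 level with at most 4.37 CPM of muscle genes.

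In the chow group, H19 had no count in mice 2, 5 and 6. These were the 3 chow libraries that missed most weakly expressed genes, 59.0%, 45.1% and 26.8% of genes with a group mean between 1 and 2 CPM, against at most 7.63% in the other 7. In them 3 counts correspond to 0.152 to 0.192 CPM, and whether they lost H19 reads was not tested. The 6 chow-fed mice outside both conditions had 0.0946 to 1.85 CPM.

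Most other genes of the Dlk1-Dio3 domain had no count. Between Dlk1 and Dio3 the annotation lists 116 genes over 815.732 kb, of which 14 had any count and 4 were tested: Meg3, Rian, Gm34667 and Dio3os. The 67 microRNA and 23 small nucleolar RNA genes had no count in any mouse. Those that lie inside a host on the same strand could not have been counted, since reads over 2 genes of 1 strand were dropped as ambiguous: of 256 protein-coding genes nested on the same strand, 255 were at 0, against 222 of 811 nested on the opposite strand.

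The paternally expressed genes of the domain were weak in all groups. Dlk1, which encodes a Notch-like membrane protein of fetal cells, had 12 counts over the chow libraries, 17 over WTD and 18 over WTD with atorvastatin. Dio3, which encodes the thyroid hormone deiodinase of fetal tissue, had 65, 68 and 112 counts, with at most 1.79 CPM (35 counts) in a chow-fed and 1.56 CPM (54 counts) in an atorvastatin-treated mouse. Rtl1, a retrotransposon-derived gene, had 4 counts, all in WTD-fed mice. None of the 3 passed the filter on low counts, and no fold is given.

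Gm34667, an uncharacterised lincRNA on the minus strand at chr12:109990882-110023873, was singled out after its values were seen. Its median was 90.8 CPM in chow-fed, 31.6 CPM in WTD-fed and 49.3 CPM in atorvastatin-treated mice. Its log2 fold change was -1.44 for WTD (SE 0.22) and -0.95 for WTD with atorvastatin (SE 0.22), each against chow, and 0.49 between the WTD groups. These values are a description. Dio3os, the antisense partner of Dio3, gave -0.08 for WTD against chow (adjusted p = 0.90, quasi-likelihood test of edgeR, Benjamini-Hochberg adjusted, as for all adjusted p-values of genes).

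Farther out, called genes went in both directions on WTD. Within 1000 kb of the Meg3 start, 4 of 13 other tested genes were called, beside 33.5% of all genes. Of these 4, 3 were higher and 1, Gm34667, lower on WTD, and the median log2 fold change of the 13 was -0.23. From a list of 12 genes around the domain, 8 were tested and 3 rose on WTD, 37.5% against the 33.5% of all genes, and the median log2 fold change was 0.06, with 0.03 over all genes. Evl, an actin regulator, rose by 2.29 (adjusted p = 9.8e-22), Degs2, a sphingolipid desaturase, by 2.79 (adjusted p = 0.0029) and Ppp2r5c, a phosphatase subunit, by 0.36 (adjusted p = 3.3e-04). Degs2 had no count in 6 of 10 chow-fed mice and at most 16 counts in a chow-fed mouse. It passed the filter through the WTD groups and could hardly be called lower, and it is 1 of the 3 and 1 of the 4. Slc25a29, a mitochondrial amino acid carrier, gave -1.10 (adjusted p = 0.030) and the transcription factor Yy1 -0.23 (adjusted p = 0.015), while Wdr25, Wars and Dync1h1 were between -0.14 and 0.11. With atorvastatin against WTD only Yy1 of the 8 passed (0.28, adjusted p = 0.0039), and against chow Evl and Ppp2r5c did. Over all genes 7.10% and 25.0% were called in these comparisons. Without the 8 libraries that missed weak genes, 5 of 9 passed for WTD, with Slc25a29 and Yy1 lower, and none of 9 for atorvastatin against WTD.

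Around H19 the outcome depended on chow mouse 1. Igf2, the partner of H19 in imprinting, had no count in any mouse, but it lies inside another gene model on the same strand, Gm49394, itself at 0, so that its reads may have been dropped. Of 10 listed neighbours 5 were tested and 4 passed for WTD against chow (80.0% against 33.5% of all genes, and 2 of 5 or 40.0% without chow mouse 1): Lsp1, a leukocyte protein, rose by 1.50 (adjusted p = 8.4e-12), the mitochondrial ribosomal gene Mrpl23 fell by 0.44 (adjusted p = 0.0066), and the muscle troponin gene Tnnt3 fell by 6.88 and Tnni2 fell by 5.09. Without chow mouse 1 Lsp1 and Mrpl23 still passed, whereas Tnnt3 was at 0.73 (adjusted p = 0.58) and Tnni2 at 1.98 (adjusted p = 0.085), and the median of the 5 moved from -0.44 to 1.63. Mrpl23 in turn was at -0.24 (adjusted p = 0.10) without the libraries that missed weak genes. Syt8, a synaptotagmin, gave 2.28 (adjusted p = 0.076). With atorvastatin against WTD Lsp1 alone of the 5 passed, falling by 0.54 (adjusted p = 0.0023), beside 7.10% of all genes. Within 1000 kb of the H19 start 7 of 19 other tested genes passed on WTD, beside 33.5% of all genes, 3 higher and 4 lower, Tnnt3 and Tnni2 among the latter.

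**Figure D4:**
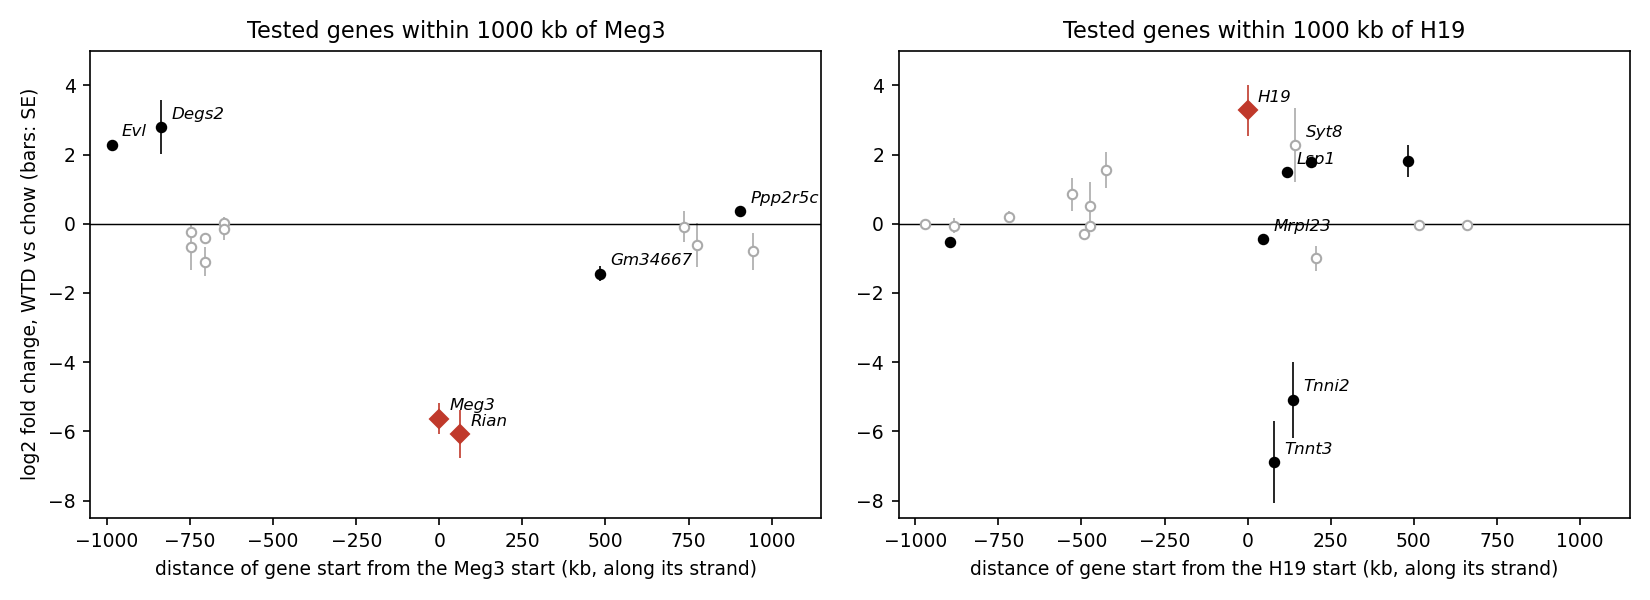
Log2 fold change for WTD against chow (y axis, bars for SE) of the tested genes within 1000 kb of Meg3 (left) and H19 (right), by distance of the gene start in kb; diamonds mark Meg3, Rian and H19, filled points genes with an adjusted p under 0.01. Meg3 and Rian stand at -5.63 and -6.08 among neighbours between -1.44 and 2.79, while Tnnt3 and Tnni2 near H19 stand low through chow mouse 1.

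Other imprinted genes were called in both directions. Of 50 listed, 28 were tested; 12 passed for WTD against chow, 6 higher and 6 lower, which is 42.9% against 33.5% of all genes, with a median of 0.23 against 0.03. Sgce, a sarcoglycan, rose by 1.63 (adjusted p = 9.4e-09), from a median of 4.81 to 14.5 CPM. The noncoding RNA Airn rose by 1.32 (adjusted p = 1.9e-07) and Igf2r, the receptor gene it overlaps on the opposite strand and which clears Igf2, by 0.57 (adjusted p = 1.1e-06). Grb10, an adaptor that dampens insulin signalling, rose by 1.02 (adjusted p = 2.5e-05).

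Slc22a18, a transporter of the Kcnq1 domain next to the H19 domain, fell by 0.52 (adjusted p = 2.2e-07), and the amino acid transporter Slc38a4 fell by 0.47 (adjusted p = 5.0e-04). The remaining calls, named after their values were seen, were Plagl1 and Impact, which rose, and Ddc, H13, Gnas and Zrsr1, which fell. Cdkn1c, a cell cycle inhibitor of the Kcnq1 domain, gave -0.05 (adjusted p = 0.86) and the zinc finger gene Peg3 -0.73 (adjusted p = 0.056). Without chow mouse 1, 12 of 30 passed, 7 higher and 5 lower, with Plagl1 (adjusted p = 0.014) and Zrsr1 (adjusted p = 0.0104) lost and Phlda2 and Htr2a gained. Without the libraries that missed weak genes 13 of 31 passed, with H13 lost (adjusted p = 0.045), Htr2a gained and Peg3 called lower (-1.14, adjusted p = 0.0013).

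Atorvastatin moved 1 of the 28 against WTD, 3.57% against 7.10% of all genes. Slc38a4 rose by 0.46 (adjusted p = 8.2e-04), from a median of 640 to 886 CPM, and its difference from chow was then -0.0034 (SE 0.11, adjusted p = 0.99). Grb10 gave -0.56 (adjusted p = 0.016) and Sgce -0.50 (adjusted p = 0.051). Against chow, 8 of 28 passed in atorvastatin-treated mice, 3 higher (Sgce, Igf2r, Airn) and 5 lower (Slc22a18, Ddc, Ube3a, Gnas, H13), which is 28.6% against 25.0% of all genes. Without chow mouse 1 this was 6 of 30.

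**Figure D5:**
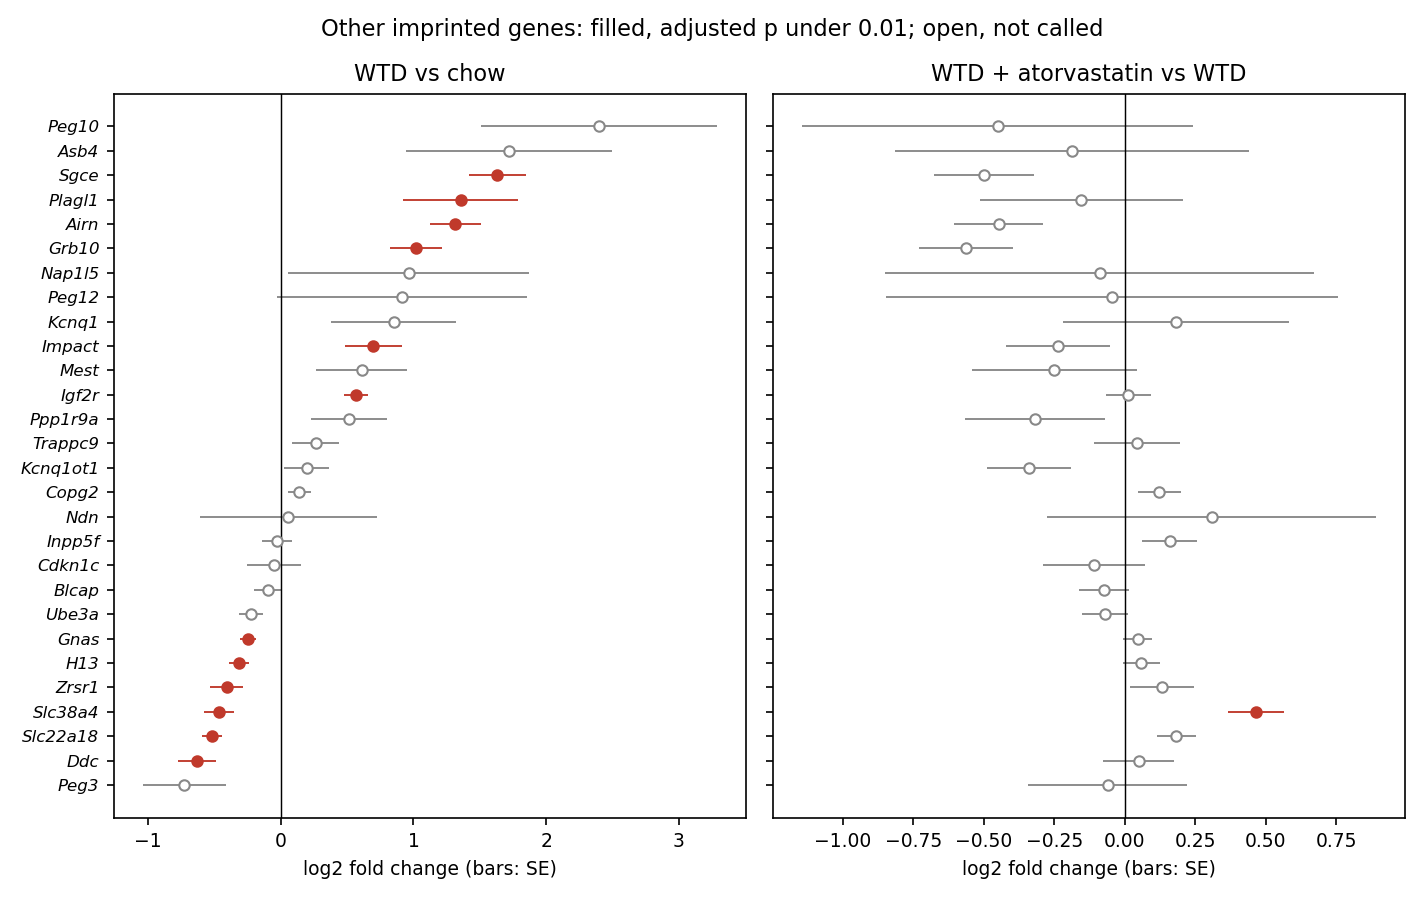
Log2 fold changes (x axis, bars for SE) of the 28 tested imprinted genes other than the 4 RNAs, for WTD against chow (left) and atorvastatin against WTD (right); filled points passed an adjusted p of 0.01. On the left 6 genes rose and 6 fell, and on the right Slc38a4 (0.46) alone passed.

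Genes that set or keep imprints were tested because both loci depend on DNA methylation. Of 17, 5 rose and 2 fell on WTD, 41.2% against 33.5% of all genes (median 0.24 against 0.03). Dnmt3a, a de novo DNA methyltransferase, rose by 1.08 (adjusted p = 1.5e-09) and Dnmt1, the maintenance methyltransferase, by 0.67 (adjusted p = 1.4e-06). Dppa3, a germline and early embryo protein that protects imprints, had no count in any chow-fed mouse and 0.776 CPM at the median of WTD-fed mice, with a count in 15 of 16 (adjusted p = 1.9e-07). It therefore passed the filter through the WTD groups alone and could only be called higher, and it is 1 of the 5. Smchd1 (0.52) and Ezh2 (0.58) rose, and Trim28 and Zfp445, which keep methylation at imprints, fell (-0.23 and -0.36). Without chow mouse 1 Ezh2 did not pass (adjusted p = 0.012) and 8 of 17 were called. Without the libraries that missed weak genes 9 of 17 were called, with Smchd1 (adjusted p = 0.018) and Trim28 (adjusted p = 0.062) lost, Uhrf1 and Rad21 added as higher and Dnmt3b and Tet2 as lower. Ctcf, the insulator protein that binds at H19, gave -0.04 (adjusted p = 0.84). None of the 17 passed for atorvastatin against WTD by edgeR's test, where 7.10% of all genes were called. For atorvastatin against chow 5 passed, 4 of them higher, which is 29.4% against 25.0% of all genes.

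H19 is 1 of several fetal liver genes that are silenced after birth. The repressor Zhx2 acts on H19, Afp and Gpc3, and Zbtb20 on Afp. Zbtb20 fell by 0.38 on WTD (adjusted p = 1.3e-05), and Zhx2 gave 0.33 (adjusted p = 0.014, or 0.0096 without chow mouse 1). Of 14 fetal liver genes 6 were tested and 4 rose on WTD, 66.7% against 33.5% of all genes. The cell surface protein gene Cd24a rose by 2.06 (adjusted p = 1.8e-11) and Gpc3, a glypican, by 1.74 (adjusted p = 5.5e-04), while Igf2bp2 rose by 1.47 (adjusted p = 0.0054). Tff3, a trefoil peptide, had no count in chow-fed mice and a WTD median of 0.685 CPM (adjusted p = 2.0e-05). It therefore passed the filter through the WTD groups alone and could only be called higher, and it is 1 of the 4. Afp, the main fetal serum protein, gave 1.23 (SE 0.72, adjusted p = 0.17). With atorvastatin Cd24a fell by 0.67 against WTD (adjusted p = 0.0047), but without the libraries that missed weak genes it did not pass (adjusted p = 0.037) and Gpc3 alone did (-1.10, adjusted p = 0.0095). Of 9 genes for microRNA processing, edgeR's test called none for WTD against chow or atorvastatin against WTD, beside 33.5% and 7.10% of all genes. For atorvastatin against chow Ago2 rose by 0.40 and Tarbp2 fell by 0.42, which is 22.2% of the 9 against 25.0% of all genes. Neither of these passed without chow mouse 1 (adjusted p = 0.0101 and 0.0204).

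Cell type markers moved with the diet as well, and 33.5% of all tested genes were called for WTD against chow. Albumin and 5 other hepatocyte genes, the defining markers of the tissue, were abundant in every mouse. Their sum was 99421 to 149147 CPM in chow-fed, 47213 to 97810 CPM in WTD-fed and 56840 to 120366 CPM in atorvastatin-treated mice. All 6 fell on WTD against chow. With atorvastatin against WTD 5 of the 6 rose and 0 fell, where 7.10% of all genes were called. The 10 cholangiocyte genes, which mark bile duct cells, all rose: their sum was 118 to 205 CPM in chow-fed, 228 to 926 CPM in WTD-fed and 270 to 671 CPM in atorvastatin-treated mice. Spp1 made up most of this sum, with 314460 counts over all libraries against 18458 for Sox9, 15431 for Epcam and 10083 for Krt19. The 12 stellate cell genes summed to 429 to 741, 1259 to 2718 and 1121 to 2561 CPM, with 7 higher on WTD. The 10 macrophage genes summed to 224 to 444, 1073 to 1924 and 806 to 1347 CPM, again with 7 higher, while of 10 endothelial genes 2 rose and 3 fell and of 7 lymphocyte genes none passed by edgeR's test. Single markers included Krt19 (1.91), Sox9 (1.27), Spp1 (2.47) and Col1a1 (3.53), which rose on WTD, and Acta2 (-0.50, adjusted p = 0.13) and Lrat (0.51, adjusted p = 0.026), which did not pass. Acta2 was at 43.8 CPM in chow mouse 1 and at most 11.1 CPM in the other chow-fed mice, so that its value leans on that library. The stellate gene Des was at 191 CPM against at most 19.6 CPM in the same comparison. The part of shifts in cell types in the levels of the 4 RNAs was not tested.

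Within groups, the 4 RNAs were set against the sums of 5 marker lists, 60 relations in all, of which 7 had an unadjusted permutation p under 0.05 and 3 an adjusted p under 0.05. All 3 were in atorvastatin-treated mice (n = 16). H19 went with the cholangiocyte sum (r = 0.76, permutation p = 5.6e-04, adjusted 0.030; rho = 0.71, permutation p = 0.0025, adjusted 0.076), with r = 0.74 without the 2 mice farthest from the median. Meg3 went against the cholangiocyte sum (r = -0.67, permutation p = 0.0015, adjusted 0.030; rho = -0.74, permutation p = 0.0017, adjusted 0.076), with r = -0.58 without the 2 farthest mice. It went with the endothelial sum (r = 0.70, permutation p = 0.0011, adjusted 0.030; rho = 0.64, permutation p = 0.0089, adjusted 0.089), with r = 0.52. By rho none passed the adjustment. Since the cholangiocyte sum was mostly Spp1, its relations are mainly those of that gene, and relations without Spp1 were not tested. Without TMM scaling the Meg3 relations did not pass, with r = -0.60 (permutation p adjusted 0.13) for the cholangiocyte and r = 0.48 (permutation p adjusted 0.30; rho = 0.31) for the endothelial sum, whereas H19 with the cholangiocyte sum did (r = 0.81, permutation p adjusted 0.0036).

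The same relations in the other groups were weaker or of other sign. H19 against the cholangiocyte sum gave r = 0.57 but rho = -0.08 in WTD-fed mice, with r = -0.16 without the 2 mice farthest from the median, and r = -0.49 in chow-fed mice. The difference between groups was not tested.

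The genes most alike to each RNA from mouse to mouse were ranked by Pearson's r over the 42 mice after the group means were subtracted, as a description. For Meg3 they were Mup-ps13 (0.67), Cyp4f17 (0.67) and Cyp3a44 (0.65), with Nsrp1 lowest (-0.61); Rian, at 0.11, was number 5373. For Rian they were Taf12 (0.52), Gm7628 (0.51) and Cldn23 (0.51), with Gm4117 lowest (-0.52). For Mirg they were Plekho2 (0.71), Anks6 (0.69) and Cd8a (0.67), with Smpdl3a lowest (-0.69). For H19 they included Gys1 (0.77) and Tpm1 (0.76), with Serpinf1 lowest (-0.79), and without chow mouse 1 they were Gnb5 (0.75), Gpr137b-ps (0.72) and Themis (0.72), with Rab1b lowest (-0.64). Points in this ranking share library depth, and leaving out chow mouse 1 changed all the genes given for H19. Leaving out the 8 libraries that missed weak genes replaced all 3 genes nearest to Meg3, and of those given for Rian and Mirg kept Cldn23 and Anks6 among the nearest 3, with Rian then number 7807 for Meg3.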

How the data were processed

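Gene counts were deposited per mouse. Per the labels and methods, the authors made strand-specific oligo-dT libraries, aligned reads to GRCm38 with STAR 2.5 and counted genes with HTSeq 0.6.1p1, and their processing notes also name Trimmomatic. The deposited counts are not normalised. Here coordinates came from GENCODE release M21, which matched 54409 of 54446 genes. Reads over 2 genes were left out as ambiguous (5.43% to 6.57% of counts), with 2.00% to 2.78% outside genes; these entries entered no library size.

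Genes were tested with edgeR 4.0.16 (quasi-likelihood, robust, R 4.3.3) on all 42 mice with TMM scaling and filterByExpr (count of 10, total of 15), with p-values adjusted after Benjamini-Hochberg and called under 0.01. DESeq2, which the study used, here in version 1.42.0, and limma-voom (limma 3.58.1) were alternatives. Log2 CPM for correlations used a prior count of 2, and permutation tests 100000 two-sided resamples. The fit and the permutation test were tested on simulated data. Marker, imprinted and neighbour lists and the 4 RNAs were chosen with earlier results of these data known. Named were all neighbours tested, 3 genes of smallest p per list and comparison, 14 fixed genes and 4 nearest per RNA; some values are not reported here. Floors of 3 counts cover counting error only, and p-values measure the spread between mice of 1 study.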

Additional observations from a re-analysis of the deposited data

Results flagged for a closer look

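Among the 10 chow-fed mice, 27 quantities were examined for a single mouse far from the rest by Dixon's test at the 95% level, and 10 stood out, in 4 mice. Chance gives about 1 in 20, but this does not hold for several of the 10. The muscle list was drawn up after the library of chow mouse 1 had been seen, and Syt8 had no count in 9 mice, so that any count in the tenth stands out. Tnni2, Degs2 and Tnnt3 had no count in 7, 6 and 5 of the 10 mice, so that the rate is not secure for them either. Tnnt3 and Tnni2 are also genes of the muscle list. Groups of 16 were not examined.

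Chow mouse 1 stood out in H19 (105 CPM, next mouse 1.85), Tnnt3 (606 CPM, next 1.87), Tnni2 (183 CPM, next 0.937), the skeletal muscle sum (4696 CPM, next 9.07) and the lymphocyte sum (51.2 CPM, next 21.7). Chow mouse 5 stood out in Mirg (4.85 CPM, next 2.15) and in the fetal liver sum (55.2 CPM, next 34.1), and its library missed 45.1% of weak genes. Chow mouse 3, which had the lowest Rian, stood out in the Meg3 neighbours Wdr25 (9.00 CPM, next 6.87) and Degs2 (1.06 CPM, next 0.512). Chow mouse 4 stood out in Syt8 (0.663 CPM), with no count in the other 9.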

How the results depend on the processing

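No fold change of the 4 RNAs changed direction. Over the alternatives Meg3 ranged from -6.36 to -5.19 and Rian from -6.67 to -5.74 for WTD against chow, and from 0.35 to 1.25 and 0.42 to 1.24 between the WTD groups. For H19 the value for WTD against chow was 7.29 by limma-voom with quality weights and 7.52 as the ratio of medians, and 3.11 to 7.64 on leaving out 1 mouse. Against chow with atorvastatin it was 6.76, 7.13 and 2.76 to 7.28. In both, the high end was reached without chow mouse 1. The lowest H19 values over the other alternatives were 2.71 for WTD and 2.47 for WTD with atorvastatin, each against chow. Leaving out 1 mouse gave -7.91 to -4.99 for Mirg on WTD and 0.19 to 3.17 between the WTD groups, with -7.91 and 3.17 reached without WTD mouse 13. Imprinted genes called for atorvastatin against WTD went from 1 to 2 at an adjusted p under 0.05, with DESeq2, with at least 10 counts in every mouse and with only the compared groups, to 6 by limma-voom, and to 1 to 2 on leaving out 1 mouse (2 without chow mouse 5, WTD mouse 15 or atorvastatin mouse 7). Against chow with atorvastatin they went from 8 to 13 by limma-voom and to 6 to 9 on leaving out 1 mouse. For WTD against chow they went from 12 to 9 to 12 on leaving out 1 mouse and to 9 to 15 over the other alternatives. Of 3 adjusted marker relations, 0 were left without the libraries that missed weak genes and 0 without the 2 farthest mice, and without TMM scaling both Meg3 relations were lost. At least 10 counts in every mouse gave no value for the 4 RNAs, and a ratio of medians none where a median was 0. No paired analysis was possible because the groups hold different mice. The check of libraries that missed weak genes and of chow mouse 1 for the gene lists was chosen after seeing the data. Depth limits Mirg and, on WTD, Rian, where most libraries had no count.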
